A study of Homo sapiens with 3 samples.

Results

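MAX-only distal sites with a canonical E-box are the MAX peaks that lay away from annotated transcription start sites (TSSs), carried the hexamer CACGTG next to the point of strongest MAX signal, and shared no base with a BMAL1 peak. They numbered 1202 of the 13650 MAX peaks (8.81%). The members were selected by measured values. Of the 13650 peaks, 13013 shared no base with a BMAL1 peak, 6014 of these also had no base within 300 bp of the TSS of any transcript, and 1202 of those had CACGTG lying wholly within 100 bp of the summit. The E-box, the distance from TSSs and the lack of a BMAL1 peak are therefore the definition of the group and not results. Fold enrichment, pileup and -log10 p of MAX belong to the same readout that put the peaks in the list. They are given as descriptions only.

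The peaks came from chromatin immunoprecipitation sequencing (ChIP-seq) of MDA-MB-231, a cell line from a human triple-negative breast cancer. Formaldehyde (1%) was applied for 10 min to fix proteins on DNA, and each precipitation used 4 µg of an antibody to MAX or to BMAL1. The libraries were 1 for each antibody and 1 of input chromatin, and no treatment or genotype distinguished them. The MAX list was made from 11545865 tags, the BMAL1 list from 13866783 and the input from 29308882. The limit on duplicate tags was 1 for MAX and 2 for BMAL1. The BMAL1 list held only 756 peaks. Lack of a BMAL1 peak therefore means that none was called, and not that BMAL1 was absent. With 1 library for each antibody in 1 cell line there is no spread between replicates, no test was made, and the 95% intervals given here cover counting error only.

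MAX is a basic helix-loop-helix leucine zipper protein that binds the E-box as a dimer, with MYC as an activating partner and with proteins of the MXD, MNT and MGA group as repressing partners. BMAL1, with CLOCK, binds the same hexamer and drives the rhythmic transcription of clock genes. Because the E-box is a palindrome, each monomer of a dimer contacts an identical half-site, and the bases next to the hexamer are those in which its copies differ. Sites far from promoters lie mostly in introns and between genes, where enhancers are found.

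The sequences of the 10 sites with the highest MAX fold enrichment are shown first, because they let the bases around the E-box be read at the strongest members. Each line holds the E-box closest to the summit with 20 bases on either side, 5′ to 3′ on the plus strand of hg19, and capitals mark the hexamer.
RAD51B, chr14:68973257-68973302: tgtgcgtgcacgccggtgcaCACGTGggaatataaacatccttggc
RASSF5, chr1:206718257-206718302: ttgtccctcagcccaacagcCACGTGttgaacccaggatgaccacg
RDH8, chr19:10138571-10138616: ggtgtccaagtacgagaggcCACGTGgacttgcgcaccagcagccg
GATAD1, chr7:92054033-92054078: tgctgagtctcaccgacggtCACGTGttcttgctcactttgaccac
UBL3, chr13:30498327-30498372: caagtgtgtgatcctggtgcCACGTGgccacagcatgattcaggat
WDR70, chr5:37717720-37717765: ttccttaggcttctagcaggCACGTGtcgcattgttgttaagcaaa
BCL7A, chr12:122461417-122461462: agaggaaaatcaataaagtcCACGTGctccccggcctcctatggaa
SOCS3, chr17:76327134-76327179: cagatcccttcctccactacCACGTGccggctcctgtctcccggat
ADGB, chr6:147235347-147235392: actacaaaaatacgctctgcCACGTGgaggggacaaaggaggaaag
HPCAL1, chr2:10418635-10418680: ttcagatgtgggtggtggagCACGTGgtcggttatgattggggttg
The names are those of the coding gene with the nearest TSS, which is a label of position and not evidence that the site acts on that gene. Distances to the TSS of a named gene are to the nearest TSS of any of its transcripts, which need not be its main one. Cytosine before the hexamer and guanine after it stand at RDH8, UBL3 and ADGB, and this pair of neighbours made up 21.1% of all members.

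The strongest member lay in an intron of RAD51B, a gene of homologous recombination (chr14:68972821-68973844). Its fold enrichment, the height of MAX fragments at the summit over the local input background, was 47.3, with a pileup of 80 fragments, and it exceeded 99.96% of all MAX peaks. Its E-box was centred 1.5 bp from the summit. The site in intron 2 of RASSF5, which encodes a RAS-binding effector (chr1:206717782-206718615), followed with a fold enrichment of 46.2, a pileup of 72 and 2 E-boxes. After this pair the values dropped, to 34.5 for an intergenic site 7114 bp downstream of a TSS of RDH8, a retinol dehydrogenase gene (chr19:10138260-10138931), and 34.3 for a site within the pseudogene TMBIM7P, 22724 bp upstream of GATAD1 (chr7:92053779-92054328).

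The next strongest sites had fold enrichments from 26.7 to 30.8. The site assigned to UBL3 lay in the non-coding gene LINC00572 (chr13:30497871-30498942, fold enrichment 30.8). The site at WDR70 was in intron 13 (chr5:37717397-37718078, 29.8 in fold enrichment). That of BCL7A, which encodes a subunit of SWI/SNF chromatin remodelling complexes, was in intron 1, 1568 bp downstream of a TSS (chr12:122461057-122461769, fold enrichment 29.6). The sites assigned to SOCS3, a suppressor of cytokine signalling (chr17:76326844-76327475), and to ADGB (chr6:147235054-147235552) both had a fold enrichment of 27.9, and the HPCAL1 site (chr2:10418200-10419141) had 26.7. The nearest BMAL1 peak was between 70748 bp (RAD51B) and 2886953 bp (RASSF5) away from these 10 sites.

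At the other end of the list, the 5 weakest members had fold enrichments of 4.13 to 4.62. The lowest lay in the non-coding gene FAM182B (chr20:25844301-25844633), with a pileup of 26 fragments. A site in intron 2 of FXYD5 (chr19:35646353-35646701) had a fold enrichment of 4.35 and a pileup of 12 fragments. The sequences of 3 of the weakest are shown to set beside the strongest, with the hexamer in capitals. Cytosine before and guanine after the hexamer also stand at RAI1.
FXYD5, chr19:35646550-35646595: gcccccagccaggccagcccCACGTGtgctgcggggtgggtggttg
RAI1, chr17:17569463-17569508: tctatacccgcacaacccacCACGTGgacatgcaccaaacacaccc
ZNF337, chr20:25844467-25844512: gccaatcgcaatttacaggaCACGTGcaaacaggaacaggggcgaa

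Over all 1202 members the median MAX fold enrichment was 10.2 (quartiles 8.17 and 13.1), with a 95% interval of the median from 10.1 to 10.4. The members lay between the other groups of MAX peaks. The 214 distal peaks that carried CACGTG and shared bases with a BMAL1 peak had a median of 12.7 (quartiles 9.87 and 17.3), and the 4812 MAX-only distal peaks without CACGTG had 8.91 (quartiles 7.30 and 10.8). The 1260 MAX-only promoter peaks with CACGTG had a median of 12.2, and all MAX peaks one of 9.73. On the log2 scale the members' median was 0.32 lower than that of the distal shared peaks (log2 ratio -0.32) and 0.19 higher than that of the sites without the hexamer. The distributions overlapped widely: the upper quartile of the members exceeded the median of the shared peaks. In the ranking of all MAX peaks, 354 members (29.5%) stood above the upper quartile and 240 (20.0%) below the lower one.

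**Figure D1:**
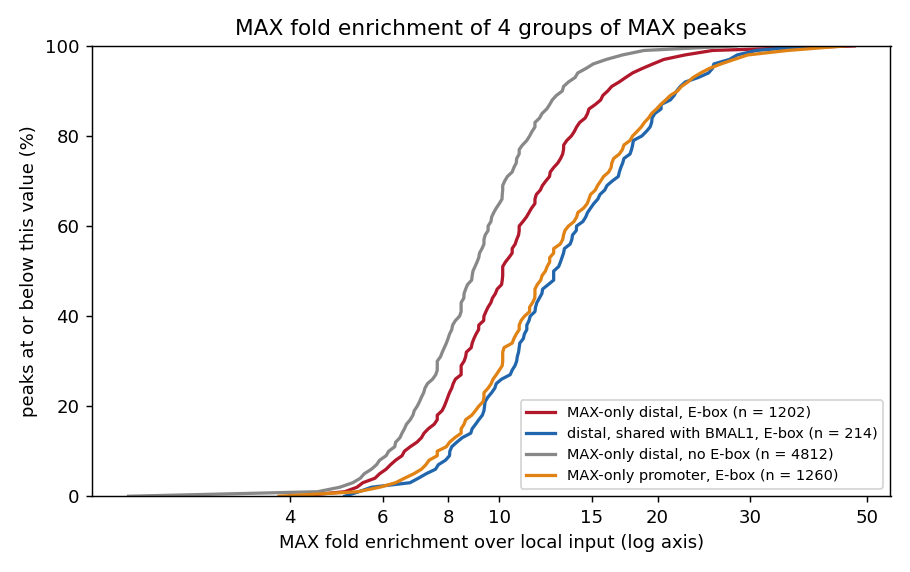
Cumulative distribution of MAX fold enrichment over local input (log axis) for 4 groups of MAX peaks, with the percentage of peaks at or below each value on the vertical axis. The curve of the 1202 MAX-only distal sites with an E-box (median 10.2) runs between that of the MAX-only distal sites without one (median 8.91) and those of the distal sites shared with BMAL1 (12.7) and the MAX-only promoters (12.2).

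The height of the peaks gave the same order. Median summit pileup was 19 fragments in the members, 26 in the distal shared peaks, 17 in the sites without CACGTG and 18 over all MAX peaks, so a typical member rested on few fragments. The peak caller's -log10 p was at least 12 in 742 of the 1202 members (61.7%), against 55.0% of all MAX peaks. The share was 85.0% in the distal shared peaks and 43.7% in the sites without CACGTG. Median peak length was 426.5 bp in the members and 519 bp in the distal shared peaks. Across the 1202 members, fold enrichment fell with the input background that divides it (Spearman's rho -0.51) and rose with peak length (rho 0.47). A rank by fold enrichment is therefore partly a rank by background.

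Every member has the hexamer near its summit by the rule. CACGTG was found in 87 of 2404 windows (3.62%) of the same 201 bp length placed 2 kb to either side of the members. Within the members the centre of the closest hexamer was a median of 36.5 bp from the summit, and 371 (30.9%) had it within 20 bp. The share fell from 15.5% in the first 10 bp to 4.16% beyond 90 bp. In the distal shared peaks the median distance was 27.5 bp, with a 95% interval of 23.5 to 33.5 bp against 33.5 to 38.5 bp in the members. Members with an E-box within 20 bp of the summit had a median fold enrichment of 10.4, and those with an E-box over 50 bp away one of 9.87. Across the 1202 members the correlation of fold enrichment with this distance was weak (Spearman's rho -0.065), and all these points come from 1 library.

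**Figure D2:**
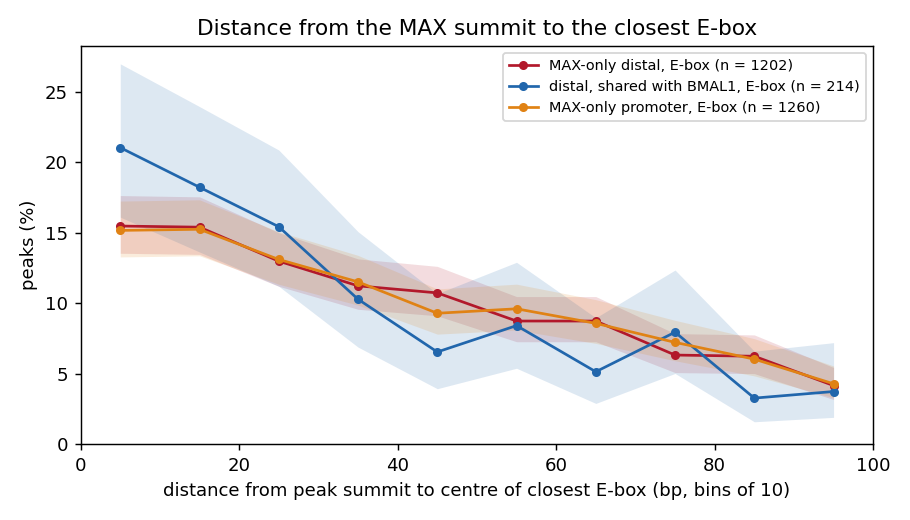
Percentage of peaks (vertical axis) by the distance in bp from the MAX summit to the centre of the closest E-box, in bins of 10 bp, with 95% Wilson intervals as shaded bands. In the 1202 MAX-only distal sites the share declines from 15.5% in the first bin to 4.16% in the last, which ends at 97.5 bp because the whole hexamer had to lie in the window.

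The bases on either side of the hexamer, which the rule did not use, differed in frequency between the members and the distal sites shared with BMAL1. Read from either strand, CACGTG has 10 possible pairs of neighbours. The form cCACGTGg, which is itself a palindrome, made up 254 of 1202 members (21.1%, 95% Wilson interval 18.9 to 23.5). In the distal peaks shared with BMAL1 it made up 9 of 214 (4.21%, interval 2.23 to 7.80), and in all 274234 copies of CACGTG in hg19 it made up 9.13%. The MAX-only promoter peaks had a share near that of the members, 19.4%, while the 224 promoter MAX peaks that carried CACGTG and shared bases with BMAL1 had 5.80% (interval 3.42 to 9.68). No test between these groups was made.

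Of the other forms, cCACGTGc was as frequent in the members (22.3%) as in the shared distal peaks (23.4%), above its 11.1% of hg19. The form aCACGTGa was seen in 3.49% of members and 3.73% of MAX-only promoter peaks, against 11.2% of the shared distal peaks (interval 7.65 to 16.1) and 9.55% of hg19. The form tCACGTGa, the least frequent, made up 1.83% of members (interval 1.21 to 2.76), below both its 5.58% of hg19 and its 5.79% of MAX-only promoter peaks. It was as rare in the shared distal peaks (1.40%, interval 0.478 to 4.04), so its low share was not particular to the members. Counted by half-site, a cytosine stood directly before CAC in 43.8% of the 2404 half-sites of the members and 43.3% of those of the MAX-only promoter peaks. It stood there in 27.3% of those of the shared distal peaks and in 27.5% of those of hg19. A thymine stood there in 9.48% of the half-sites of the members, 17.3% for the MAX-only promoter peaks, 15.9% for the shared distal peaks and 20.4% for hg19.

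**Figure D3:**
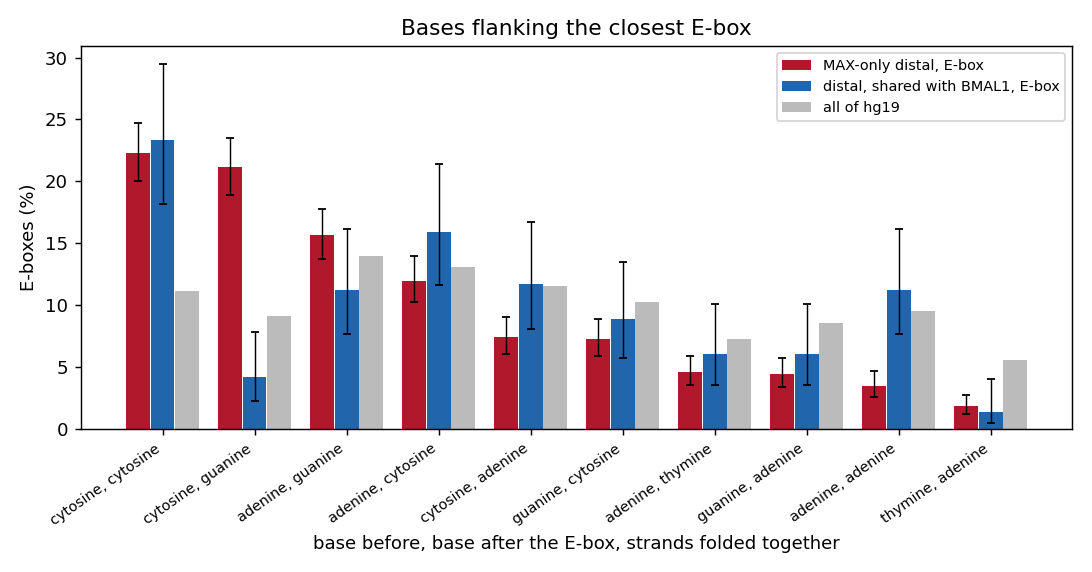
Percentage of E-boxes (vertical axis) with each pair of bases before and after the hexamer, strands folded together, in the 1202 MAX-only distal sites, the 214 distal sites shared with BMAL1 and all of hg19, with 95% Wilson intervals as error bars on the peak groups. Cytosine before and guanine after the hexamer made up 21.1% of the MAX-only sites and 4.21% of the shared ones, while cytosine both before and after it made up 22.3% and 23.4%.

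The share of cCACGTGg was also given for strong members alone. The limit, chosen after the values were seen, was the median fold enrichment of the distal shared peaks. Of the 332 members at or above it, 87 had this form (26.2%, interval 21.8 to 31.2). Of the 870 below it, 167 did (19.2%, interval 16.7 to 21.95), and the intervals just overlapped. In the distal shared peaks the order was the other way. There 2 of 112 at or above the limit had it (1.79%, interval 0.491 to 6.28) and 7 of 102 below it (6.86%, 3.36 to 13.5). Median fold enrichment was 10.5 for members with cCACGTGg, 10.6 for cCACGTGc and 9.35 for aCACGTGa. For the other forms it was 10.6 (gCACGTGc), 10.4 (aCACGTGg), 10.3 (gCACGTGa), 10.2 (tCACGTGa), 9.95 (aCACGTGc) and 9.35 (cCACGTGa and aCACGTGt). Seen from the genome, 1.07% of all cCACGTGg of hg19 and 0.897% of all cCACGTGc lay at a member, against 0.164% of tCACGTGa and 0.458% of CACGTG as a whole.

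Most members had a single E-box. More than 1 was found in 49 (4.08%, interval 3.10 to 5.35), against 37 of the 214 distal shared peaks (17.3%, interval 12.8 to 22.9) and 5.48% of the MAX-only promoter peaks. Members with more than 1 had a median fold enrichment of 9.67 and those with 1 had 10.2, with intervals of the medians that overlapped. Pairs of CACGTG with 6 or 7 bp between them, the spacing of tandem E-boxes bound by CLOCK and BMAL1 at clock genes, were found in 0 of 1202 members and in 1 of 214 distal shared peaks. The upper Wilson bound of a count of 0 among 1202 members is 0.319%. With the E'-box CACGTT, on both strands, also allowed as either element of the pair, there was 1 in 1202 members (interval 0.0147% to 0.470%) and 1 in 214 distal shared peaks (0.0825% to 2.60%).

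Only 3 members held 3 or more copies. The strongest of them lay in a non-coding gene, 26386 bp downstream of a TSS of ZP4 (chr1:238027544-238028094), with a fold enrichment of 20.9 and a pileup of 47. A site 18468 bp from OCM2 (chr7:97600816-97601140) had 3 copies in a CA-rich simple repeat and a fold enrichment of 10.9 on 14 fragments. The last, 10820 bp upstream of ADGRB1, had 4 copies and a fold enrichment of 7.45. The stretches holding the first 2 sets of copies are shown because the spacing can be read from them, with 31 and 95 bases between the hexamers at ZP4 and 22 and 30 at OCM2 (hexamers in capitals).
ZP4, chr1:238027736-238027896: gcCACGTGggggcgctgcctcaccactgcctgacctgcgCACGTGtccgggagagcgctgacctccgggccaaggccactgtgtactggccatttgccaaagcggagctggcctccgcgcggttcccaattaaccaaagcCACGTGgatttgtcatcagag
OCM2, chr7:97600943-97601042: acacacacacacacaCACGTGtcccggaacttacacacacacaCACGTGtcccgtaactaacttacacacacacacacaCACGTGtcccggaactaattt

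Other sequence elements near the summit were sought in the same 201 bp, on both strands. The AP-1 element, TGACTCA or its complement TGAGTCA, is bound by FOS and JUN dimers and is common in enhancers of basal-like breast cancer cells. It occurred in 211 members (17.6%, interval 15.5 to 19.8), in 3.66% of the windows 2 kb to either side, and in 4.44% of the MAX-only promoter peaks with an E-box. Its share was higher in the other distal groups, 27.1% of the shared peaks and 24.9% of the sites without CACGTG, and was 13.6% over all MAX peaks. Members with and without AP-1 had the same median fold enrichment, 10.2. The AP-1 element was a median of 62.5 bp from the E-box, centre to centre, and 48 bp from the summit.

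Among the 10 strongest members, those at UBL3 and BCL7A held an AP-1 element. Both stretches are shown with the AP-1 element and the E-box in capitals, which lie 60 and 38 bases apart and in opposite order.
UBL3, chr13:30498332-30498434: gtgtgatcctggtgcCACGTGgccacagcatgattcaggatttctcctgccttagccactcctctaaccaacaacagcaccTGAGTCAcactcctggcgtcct
BCL7A, chr12:122461377-122461457: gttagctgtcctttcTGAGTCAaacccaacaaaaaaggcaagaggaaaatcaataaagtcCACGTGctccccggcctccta

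Imperfect E-boxes were less frequent in the members than in the other distal peaks. CATGTG was found in 16.2% of members (interval 14.3 to 18.4), in 32.7% of the shared distal peaks (26.8 to 39.3), in 27.6% of the sites without CACGTG and in 16.8% of all MAX peaks. In the windows 2 kb from the members it was found in 13.1%. CACGTT, the E'-box of the PER2 promoter, occurred in 3.91% of members (interval 2.95 to 5.16), near the 3.29% of the windows 2 kb away, and in 11.7% of the shared distal peaks (8.04 to 16.7) and 6.09% of all MAX peaks. CACGCG occurred in 4.49% of members and in 13.3% of all MAX peaks.

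The elements of CpG-rich promoters were less frequent than at promoters. The GC box GGGCGG, bound by SP factors, was in 14.6% of members, 44.9% of MAX-only promoter peaks and 34.4% of all MAX peaks. The ETS element CCGGAAG was in 2.91%, 10.8% and 7.84%. The TEAD element GGAATG, bound by the partners of YAP, was in 14.9% of members, 10.4% of the windows 2 kb away and 13.4% of all MAX peaks. It was found in 19.6% of the sites without CACGTG.

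**Figure D4:**
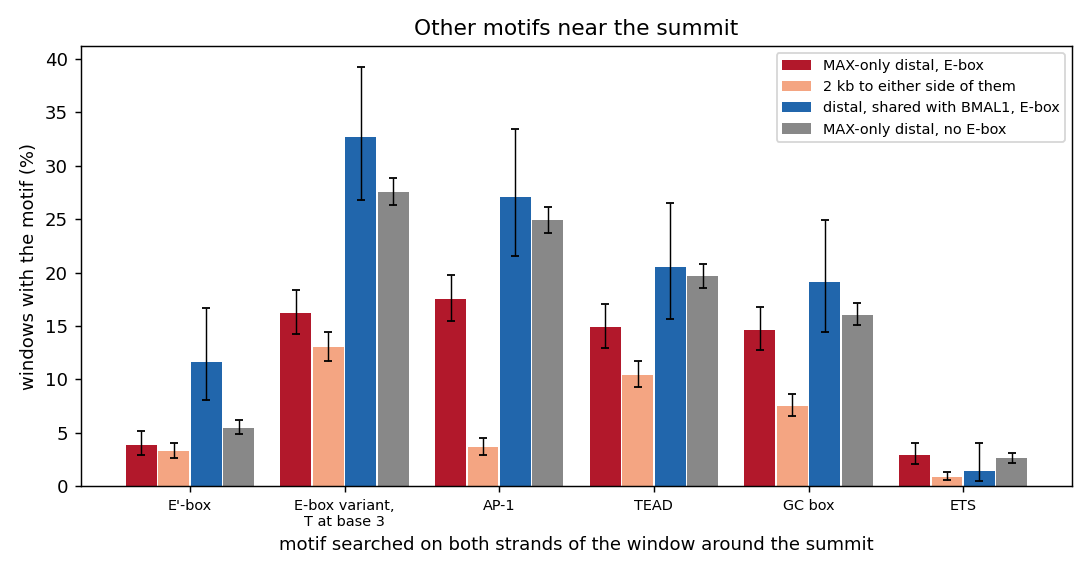
Percentage of 201 bp windows (vertical axis) that hold each of 6 motifs in the 1202 MAX-only distal sites with an E-box, in windows 2 kb to either side of them, in the 214 distal sites shared with BMAL1 and in the 4812 MAX-only distal sites without an E-box, with 95% Wilson intervals as error bars. AP-1 is at 17.6% in the sites and 3.66% beside them, and the E-box variant with T at base 3 is at 16.2% in the sites against 32.7% in the shared ones.

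The members were mostly intronic. Introns of coding genes held 605 (50.3%), other genes and pseudogenes 136 (11.3%), coding exons 21 (1.75%), the non-coding parts of exons 42 (3.49%), and the space between genes 398 (33.1%). The sites without CACGTG were distributed alike, with 48.9% in introns of coding genes and 32.7% between genes. Of the 535 members placed in an intron of a canonical transcript, 217 (40.6%) were in intron 1, as were 41.8% of the intronic sites without CACGTG. The median distance to a TSS of any kind was 5463 bp, with 217 members within 1 kb, 572 between 1 and 10 kb, 403 between 10 and 100 kb and 10 farther away. Fold enrichment hardly varied with it, with medians of 10.2 within 1 kb and 10.0 between 10 and 100 kb (Spearman's rho -0.011 over 1202 sites).

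The farthest member from any TSS was an intergenic site on chromosome 14, 197765 bp from the nearest one (chr14:54656478-54656777), with a fold enrichment of 10.5. Sites in introns of GFRA1 (chr10:117873624-117873963, fold enrichment 9.87) and GRM8 (chr7:126368106-126368405, 8.57) were next, at 141344 and 142181 bp. The values of these sites lay between the quartiles of all members (8.17 and 13.1).

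The DNA of the members was less rich in CpG than that of promoters. The median GC content of the 201 bp was 54.2%, against 48.3% in the windows 2 kb away and 63.9% in MAX-only promoter peaks. The ratio of observed to expected CpG was 0.369 in the members, 0.403 in the shared distal peaks, 0.311 in the sites without CACGTG and 0.779 in the promoter peaks. CACGTG itself contains a CpG, and with the hexamers left out the ratio in the members was 0.311. A ratio of at least 0.6 with over 50% GC was found in 197 members (16.4%) and in 71.0% of the promoter peaks. These CpG-rich members had a median fold enrichment of 10.9, and the others one of 10.1.

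The E-boxes of the members were for the most part unique in the genome. The 20 bases around the hexamer occurred once in hg19 for 1140 members (94.8%), against 73.3% of all CACGTG of hg19. They occurred over 100 times for 8 members (0.666%), against 8.98% of all CACGTG. The fold enrichment of these 8 was between 7.90 and 14.8. A run of 20 bases was shared with another member in 64 cases, and members that share it are not independent sequences. How the authors treated reads that map to several places is not given in the sources used here, and its part in this was not tested.

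The members were scattered over the genome. By number, chromosome 2 held the most (111) and chromosome X the fewest (13). As a share of the MAX-only distal peaks of each chromosome, they ranged from 15.4% on chromosome 17 (interval 12.3 to 19.0) and 15.7% on X (9.39 to 24.98) to 27.5% on chromosome 22 (20.98 to 35.2), against 20.0% overall. The median distance to the next member was 324249 bp and to the next MAX peak of any kind 21515 bp, and 201 members (16.7%) had a promoter MAX peak within 10 kb. A single pair of members lay less than 1 kb apart, with summits separated by 509 bp on chromosome 9 (chr9:93809858-93810229 and chr9:93810293-93810786, fold enrichments 9.11 and 14.9). AUH, a gene of leucine catabolism, was the nearest coding gene of this pair and of 2 more members (fold enrichments 14.6 and 15.7), and with 4 it had the most of any gene. These sites lay 23516 to 182768 bp from its TSS, and AUH was named after the values were seen. Of 1084 coding genes that were nearest to a member, 979 had 1, 93 had 2 and 12 had 3 or more.

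The rule left out MAX peaks that shared a base with a BMAL1 peak, so the distance to one was partly set by selection. A BMAL1 peak lay within 10 kb of 38 members (3.16%) and within 1 kb of 4. The share within 10 kb was 3.64% in the sites without CACGTG, which passed the same limit. It was 7.33% over all MAX peaks, which include the shared ones. The nearest BMAL1 peak was 27 bp from the member in intron 1 of RSAD1 (chr17:48556712-48557219, fold enrichment 13.2). At 303 bp this member was also just beyond the promoter distance. Members with a BMAL1 peak within 10 kb had a median fold enrichment of 11.4 (interval 8.99 to 13.2), and the others 10.2. On the other side of this limit, the peaks left out with the smallest overlap shared 36 bp (SH3TC1), 178 bp (THRB) and 233 bp (MGARP) with a BMAL1 peak.

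The other limits of the rule also passed through continuous values. The members closest to a TSS were 302 bp (SQOR, fold enrichment 5.08), 303 bp (RSAD1) and 305 bp (AASDHPPT, 12.2) away, and the peaks just inside the promoter distance were at 299 bp (CEP57, 7.11), 295 bp (KLF15, 11.7) and 294 bp (ZDHHC8, 14.0). The E-box was centred 97.5 bp from the summit in the members at UBE2J2 and SPOCD1, and 98.5 bp in the left-out peaks at PRMT8, FGF1 and GRM4.

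The nearest coding genes were compared with 7 lists of genes, with the share of all 20090 coding genes that were nearest to a member (1084, 5.40%) as the background. A distal MAX peak of any kind was nearest to 3812 of them (19.0%), and 1202 of the 6332 distal MAX peaks were members. A list can thus exceed 5.40% because its genes have more distal MAX peaks. A member was nearest to 2 of 24 core clock genes (8.33%). BHLHE40, which encodes the E-box-binding repressor DEC1, had 2 members, an intergenic site 46579 bp downstream of its TSS (chr3:5068201-5068713) with a fold enrichment of 14.4 and another at 19594 bp (chr3:5041432-5041731) with 7.50. The second lay 4544 bp from a BMAL1 peak. CSNK1D, the kinase that phosphorylates PER proteins, had a site in an intron (chr17:80199390-80199905), with a fold enrichment of 12.02. It lay 3369 bp downstream of the nearest TSS of any CSNK1D transcript, which need not be that of the main transcript. Of the 24 clock genes, 9 (37.5%) were nearest to a distal MAX peak of any kind, and 3 of their 25 distal MAX peaks were members.

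Within the MAX network itself, 2 of 20 distal MAX peaks were members, and 1 of 13 genes was nearest to a member (7.69%). It was MLXIPL, which encodes the glucose-sensing E-box factor ChREBP, with a site 4851 bp upstream of its TSS (chr7:73043447-73043972, fold enrichment 11.5) and another in intron 7 (chr7:73016184-73016512, 9.35). Of 18 MYC target genes of proliferation, 0 were nearest to a member. Only 3 of these had any distal MAX peak, so this list had few sites that could be counted.

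Genes of lysosome and autophagy, many of which carry the form tCACGTGa in their promoters, were nearest to a member in 5 of 32 cases (15.6%). A distal MAX peak of any kind was nearest to 7 of the 32 (21.9%), and 5 of their 11 distal MAX peaks were members. LAMP2, a lysosomal membrane protein gene, had an intergenic site 16605 bp upstream of its TSS (chrX:119619648-119620067, fold enrichment 13.5). The site for PSAP, the precursor of the saposins, was in an intron of CDH23 (chr10:73571752-73572220, 14.7 in fold enrichment). GABARAP, an autophagosome protein gene, had a site 591 bp upstream (chr17:7146161-7146613, 9.83). In fold enrichment the sites of CTSD (chr11:1803935-1804560, 5.33) and FLCN (chr17:17140843-17141254, 5.31) exceeded only 2.28% and 2.20% of MAX peaks. Their pileups, 21 and 23 fragments, were above the median of 19 in the members. The E-box of FLCN, a regulator of the lysosomal factors TFEB and TFE3, had the form tCACGTGa and those of the others did not, as the sequences show.
LAMP2, chrX:119619795-119619840: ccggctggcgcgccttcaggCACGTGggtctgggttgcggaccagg
PSAP, chr10:73571917-73571962: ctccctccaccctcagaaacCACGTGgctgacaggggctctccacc
GABARAP, chr17:7146363-7146408: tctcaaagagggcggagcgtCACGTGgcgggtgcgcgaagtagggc
CTSD, chr11:1804251-1804296: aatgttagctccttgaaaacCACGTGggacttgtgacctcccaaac
FLCN, chr17:17140977-17141022: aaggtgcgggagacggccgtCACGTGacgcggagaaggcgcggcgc

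Transcription factors of mesenchymal and basal breast cells were nearest to a member in 7 of 26 cases (26.9%), and 19 of the 26 (73.1%) had a distal MAX peak of any kind, against 19.0% of all coding genes. Of their 48 distal MAX peaks, 9 were members, a share close to the 1202 of 6332 for all coding genes. JUN, a subunit of AP-1, had the strongest, in a non-coding gene 28389 bp downstream of its TSS (chr1:59220899-59221538), with a fold enrichment of 25.4, which exceeded that of 98.7% of the MAX list. KLF4 had 2 members, 66049 bp downstream of its TSS (chr9:110184519-110184861, fold enrichment 8.58) and 660568 bp upstream (chr9:110912998-110913888, 15.9). SNAI1, a repressor of epithelial genes, also had 2, one 3856 bp upstream (chr20:48595403-48595892, fold enrichment 11) and one 44896 bp downstream (chr20:48644152-48644692, 7.62). FOSL1, another AP-1 subunit, had one in intron 1 (chr11:65666804-65667217, 10.5), and RUNX2 one in intron 2 (chr6:45388392-45388691, 10.1). FOSL2 (fold enrichment 6.77) and SNAI2 (9.87) were the others.
JUN, chr1:59221336-59221381: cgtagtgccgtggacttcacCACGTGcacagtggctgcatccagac
SNAI1, chr20:48595631-48595676: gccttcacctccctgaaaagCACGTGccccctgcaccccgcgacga
FOSL1, chr11:65666907-65666952: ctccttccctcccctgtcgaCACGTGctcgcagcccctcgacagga

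Of 23 genes of glucose and lipid metabolism, 6 (26.1%) were nearest to a member, and 15 (65.2%) had a distal MAX peak. Of their 38 distal MAX peaks, 7 were members, again close to the share for all coding genes. PFKFB3, a regulator of glycolysis, had 2 members, one in an intron 483 bp downstream of its TSS (chr10:6187252-6187585, fold enrichment 7.91, pileup 13) and a stronger one 75323 bp downstream in the non-coding gene LINC02649 (chr10:6341242-6341614, 15.1). That of ARRDC4, a target of the glucose-sensing factors MondoA and ChREBP, was 194242 bp downstream (chr15:98697856-98698451, 14.2). The glucose transporter gene SLC2A1 had a site in intron 1 (chr1:43413940-43414239, 10.9), SCD, the stearoyl-CoA desaturase gene, one in intron 1 (chr10:102107587-102107918, 10.2), and ENO1, a glycolytic enzyme gene, one 32066 bp upstream (chr1:8971080-8971474, 10.2). HK1 was the last, with a site in an intron (chr10:71087736-71088094, 8.04). In the focal adhesion and matrix list, 4 of 36 genes (11.1%) were nearest to a member, among them CAV1 (fold enrichment 10.8) and FN1 (5.08), and 26 (72.2%) had a distal MAX peak. Only 4 of the 73 distal MAX peaks of this list were members. The lists were chosen with earlier results of these data known and a gene far from its neighbours can be the nearest one over a longer stretch, so these shares describe the members and were not tested.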

How the data were processed

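ChIP-seq peak lists of 1 MAX and 1 BMAL1 library of MDA-MB-231 cells were used, and groups were taken from the antibody in the labels. The authors aligned single reads on hg19 with BWA 0.6.2 and called peaks with MACS2 2.0.9 against the input, for each antibody separately. Per the file headers, tags were extended to 300 bp and the p cutoff was 1e-05, whereas the methods give a -log10 p of 8. All listed peaks were kept. The deposited pileup is the height of extended fragments at the summit, not scaled to depth. The deposited fold enrichment divides that height by a local background taken from the input. That background stood at a common lowest level (1.28) in 177 of the 1202 members (14.7%), so it did not follow nearby input tags at every site. The -log10 p-values were written by the authors' peak caller, and the q-values were not used.

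Peaks were taken as shared from 1 bp, and TSSs and gene parts from GENCODE release 44 on GRCh37. Sequences were read from hg19 in 201 bp around each summit, and a hexamer counted only where it lay wholly inside. Shares have 95% Wilson intervals and medians have binomial order-statistic intervals. A gene was assigned by the nearest TSS of any transcript of a coding gene. The regions named are the 10 strongest and 5 weakest members, the 3 with most E-boxes, the 3 on either side of each limit of the rule, the 3 farthest from a TSS, pairs under 1 kb apart, and up to 5 members for each gene list, a few of which are not reported here. The gene with the most members, the strongest sites with AP-1 and the remaining members of the mesenchymal and metabolism lists were added after the values were seen. The members, the lists and the motifs were chosen with earlier results of these data known. Alternatives covered the p cutoff, the promoter distance and TSS set, the E-box window and definition, the distance to BMAL1 peaks, pileup in place of fold enrichment, and the CpG ratio without E-boxes. Counting was tested on simulated sequences with planted E-boxes. The genome sequence was not repeat-masked. Software was Python 3.11.15 with pysam 0.24.0, numpy 2.4.6, scipy 1.17.1, pandas 2.3.3 and, for plots, matplotlib 3.10.9.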

Additional observations from a re-analysis of the deposited data

How the results depend on the processing

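Values for 11 results were recomputed under 11 settings, 96 values in all. Of these, 70 stayed within the counting interval of the value reported, or within 1.5 times for the number of members, and 26 did not. No log2 ratio of medians changed sign. At a -log10 p of at least 12 in both lists there were 788 members, since BMAL1 peaks were lost too, with a median fold enrichment of 12.2, a median length of 484.0 bp and a CpG ratio of 0.392. The log2 ratios of median fold enrichment were then -0.21 to the distal shared sites and 0.14 to the sites without CACGTG. At a minimum of 8 the median fold enrichment was 10.5 and the latter ratio 0.17. With an E-box within 50 bp of the summit, there were 766 members, and 2.09% had more than 1. With an E-box anywhere in the peak, 8.29% had more than 1, the median length was 444.5 bp, and cCACGTGg made up 18.5%. With distal set at over 1 kb, 63.5% (63.45) lay in genes, the median distance to a TSS was 7972 bp and the CpG ratio 0.346. With coding TSSs only, these were 69.7% (69.65), 14216 bp and 0.399, and the median length was 438.5 bp. Pileup gave log2 ratios of -0.45 and 0.16. Without the E-box bases the CpG ratio was 0.311. Among the 332 strong members, chosen after seeing the data, it was 0.418, 5.42% had more than 1 E-box and cCACGTGg made up 26.2%. The settings change which peaks are counted, and no further cause was tested. The 1 library per antibody gives no replicate error, and a median pileup of 19 fragments limits the precision of single sites. No paired analysis was possible because each antibody has 1 library.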
